A study of Homo sapiens and Mus musculus with 30 samples.

Results

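Early neural precursors derived from the human embryonic stem cell line H9 were compared with undifferentiated H9 for the 2′-O-methylation of their ribosomal RNA (rRNA). The comparison takes in 2 of the 30 samples of the study and 6 of its 51 human libraries. They are the 3 libraries of the precursors and the 3 undifferentiated libraries that carry the same sequencing indexes, the short tags that mark a library (ACTAGA for pair 1, CGCAAT for pair 2 and TACTGT for pair 3). Both samples are H9 of wild-type genotype. The undifferentiated cells were kept feeder-free on Matrigel in mTeSR1 medium, and the label of the precursors adds neural induction. The study profiled rRNA methylation by RiboMeth-seq in mouse brain and in human pluripotent cells along their differentiation, and its design text calls the replicates biological triplicates. The undifferentiated sample holds 6 libraries in 2 index sets, and what distinguishes the sets is not stated. The tables hold rRNA read ends and no messenger RNA, so the cell type on the label could not be checked against marker genes. The libraries of both samples came from H9 alone, which is 1 line.

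A 2′-O-methyl group sits on the ribose of a nucleotide and protects the neighbouring bond from alkali. In the nucleolus the methyltransferase fibrillarin adds it, and a box C/D small nucleolar RNA (snoRNA) that base-pairs with the rRNA around the site selects the nucleotide. Many rRNA sites are methylated in nearly every ribosome, and others only in a part of them, so that a cell holds ribosomes with different modifications. In RiboMeth-seq the RNA is broken by alkali, the ends of the fragments are counted, and a methylated nucleotide appears as a dip in the count of read ends. The deposited score is 1 minus the read-end count at a nucleotide over the weighted mean count of its 6 neighbours on each side, with negative values set to 0. A score near 1 stands for strong protection and 0 for none.

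The list holds 109 known sites. The 18S rRNA has 41 of them, the 28S rRNA 66 and the 5.8S rRNA 2. Their names give the methylated base and the number used in snoRNA target tables. The sequences around the 9 sites on which the results turn are printed here as the deposited tables spell them, 5′ to 3′, with 10 bases on each side and the methylated nucleotide in capitals. The first 3 were those with the largest called falls, the next 4 those with the largest called rises, and the last 2 are the targets of 1 snoRNA, SNORD68. With nucleotide 1 as the first base of a table's sequence, 28S Um3904 is nucleotide 3925, 28S Am4541 is nucleotide 4571 and 28S Am2388 is nucleotide 2400. The 18S and 5.8S sites have the same number in the tables as in their names.
28S Um3904: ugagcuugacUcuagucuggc
18S Am576: uccacuuuaaAuccuuuaacg
28S Am4541: ccuacugaugAuguguuguug
5.8S Um14: cucuuagcggUggaucacucg
18S Um354: uucgaacgucUgcccuaucaa
18S Gm867: uaggaauaauGgaauaggacc
18S Gm1447: caacuucuuaGagggacaagu
18S Um428: aggguucgauUccggagaggg
28S Am2388: gccgaaguggAgaaggguucc

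The precursor libraries held 14498559 to 31453523 rRNA read ends and the undifferentiated libraries with the same indexes 13718466 to 21477603. The neighbours of every site carried at least 550.7 read ends per position in the weighted mean. The median score over the sites was 0.930 to 0.951 in the precursor libraries and 0.915 to 0.951 in the undifferentiated libraries, so the general level overlapped. The mean score at positions outside the list, a background of the assay, was 0.155 to 0.174 in the precursors and 0.145 to 0.161 in undifferentiated cells. Precursors and undifferentiated cells lie in tables with different library numbers, and the library preparation and the cell state cannot be told apart.

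Precursors differed from undifferentiated H9 at a minority of sites, in both directions, and by small amounts at most of them. Of the 108 sites tested, 42 were called at an adjusted p under 0.05 by limma with Benjamini-Hochberg adjustment and the index as a block, which is 38.9%. The score was higher in precursors at 25 sites (23.1%) and lower at 17 (15.7%). The difference was at least 0.1 at 13 called sites, 10 rises and 3 falls, and under 0.05 at 17. The median difference over the 108 sites was 0.0014, with 57 sites higher and 51 lower before any threshold. Of all tested sites, 37 had precursor and undifferentiated libraries that did not overlap (34.3%), and 32 of the 42 called sites were among them. At the 42 called sites the difference had the same sign in all 3 index pairs.

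**Figure D1:**
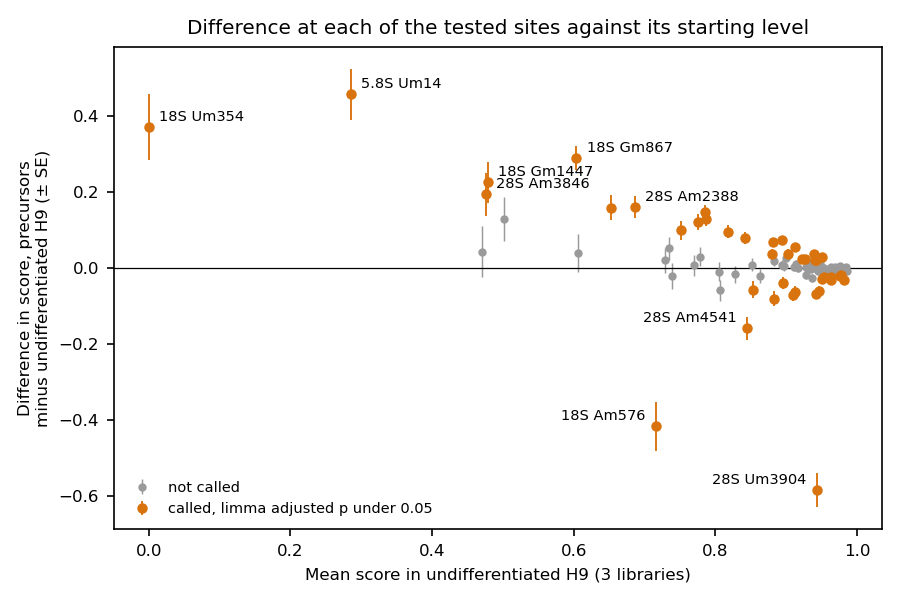
Difference in score (precursors minus undifferentiated H9, bars ± SE of the paired limma fit) against the mean score in 3 undifferentiated libraries, 1 point per tested site, with the 42 called sites in orange. The 3 lowest points are 28S Um3904, 18S Am576 and 28S Am4541.

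28S Um3904, the site guided by SNORD52, fell from nearly complete to partial protection. The score was 0.445, 0.337 and 0.295 in the precursor libraries of pairs 1, 2 and 3, and 0.977, 0.971 and 0.881 in the undifferentiated libraries in the same order. The groups did not overlap, and every precursor library was below every one of the 6 undifferentiated libraries. The score fell by 0.584 ± 0.046 (SE of the paired fit, n = 3 pairs, limma adjusted p = 5.7e-20). In read ends, the precursor library with index CGCAAT had 3738 at the site against a neighbour mean of 5635, and its undifferentiated partner 92 against 3197. The drop was present in the 5′ ends alone, where the mean score went from 0.979 to 0.184, and in the 3′ ends alone, from 0.908 to 0.557. The undifferentiated libraries of the other index set read lower, at 0.784, 0.579 and 0.756, and against them, in a fit without the index block, the difference was -0.348 (limma adjusted p = 0.00351). The value of Um3904 in undifferentiated H9 thus depended on the index set, and the size of the fall with it.

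18S Am576, guided by SNORD93, changed next most among the falls. Its score was 0.197, 0.243 and 0.458 in the precursors, in the same order of pairs, and 0.685, 0.753 and 0.711 in their undifferentiated partners. The groups did not overlap, but the precursor library with index TACTGT lay well above the other two. The score fell by 0.417 ± 0.066 (SE, n = 3 pairs, limma adjusted p = 1.31e-07), and the other undifferentiated index set, at 0.754 ± 0.016 (SD, n = 3), lay close to the first. 28S Am4541, guided by SNORD63, read 0.722, 0.654 and 0.680 in precursors and 0.848, 0.844 and 0.842 in undifferentiated cells, a fall of 0.159 ± 0.029 (SE, limma adjusted p = 3.67e-06). The undifferentiated libraries were almost identical here and all 3 precursor libraries were below them.

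The largest rise was at Um14 of 5.8S rRNA, which SNORD71 guides. The precursor libraries had 0.757, 0.761 and 0.714 and were close together. The undifferentiated libraries were spread widely, at 0.129, 0.196 and 0.532, and the high one, with index TACTGT, was still below every precursor library. The rise was 0.458 ± 0.067 (SE, limma adjusted p = 1.69e-08). It ranged from 0.182 to 0.628 over the index pairs. The small p-value rests on variance shared between sites: with a prior that has no trend, the limma adjusted p was 0.0495. The score at Um14 rests on 5′ ends, since no library of either group had a 3′ end at this nucleotide.

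18S Um354, a target of SNORD90, went from no detectable protection to partial protection. All 6 undifferentiated libraries had a score of 0, and the precursors had 0.295, 0.415 and 0.408. The rise was 0.373 ± 0.087 (SE, limma adjusted p = 0.000237). Without pair 2 the difference was about as large, at 0.352, but was not called (limma adjusted p = 0.161), nor was it from 3′ ends alone (limma adjusted p = 0.0855). A score of 0 is a truncated value: the undifferentiated libraries had more read ends at the nucleotide than around it, 5204 against a neighbour mean of 3484 for index ACTAGA. With values below 0 kept, their mean was -0.449 ± 0.110 (SD, n = 3) and the difference was 0.822.

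18S Gm867 and Gm1447, guided by SNORD98 and SNORD127, rose to different end points. Gm867 read 0.513, 0.617 and 0.680 in undifferentiated cells and 0.889, 0.899 and 0.895 in precursors. The precursor libraries agreed to within 0.01 of one another and lay above all undifferentiated libraries of both index sets. The rise was 0.291 ± 0.032 (SE, limma adjusted p = 1.18e-12). Gm1447 read 0.574, 0.474 and 0.388 in undifferentiated cells and 0.773, 0.683 and 0.659 in precursors, where the order of the indexes was the same in both groups. The rise was 0.226 ± 0.054 (SE, limma adjusted p = 0.000298).

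SNORD68, a snoRNA encoded in an intron of the ribosomal protein gene RPL13, guides 1 site in each large rRNA, and both rose. 28S Am2388 read 0.640, 0.675 and 0.745 in undifferentiated cells and 0.867, 0.849 and 0.826 in precursors, a rise of 0.161 ± 0.029 (SE, limma adjusted p = 3.65e-06). 18S Um428 read 0.718, 0.789 and 0.748 and then 0.841, 0.856 and 0.856, a rise of 0.0996 ± 0.0244 (SE, limma adjusted p = 0.000405). At both sites the groups did not overlap. Guides are listed by number, without a letter for the member of a family. No other listed guide number with more than 1 site had a call at each of them. SNORD45 had 1 called rise among 3 sites, SNORD58 had 1 called fall among 2 (28S Um4197, next to Gm4198 with a difference of -0.0024), and SNORD24 had 1 called rise among 2 (28S Cm2352). SNORD36, SNORD32 and SNORD50 had no call among 2 sites each. Over all 108 tested sites 38.9% were called, and whether guides differ in their calls was not tested.

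**Figure D2:**
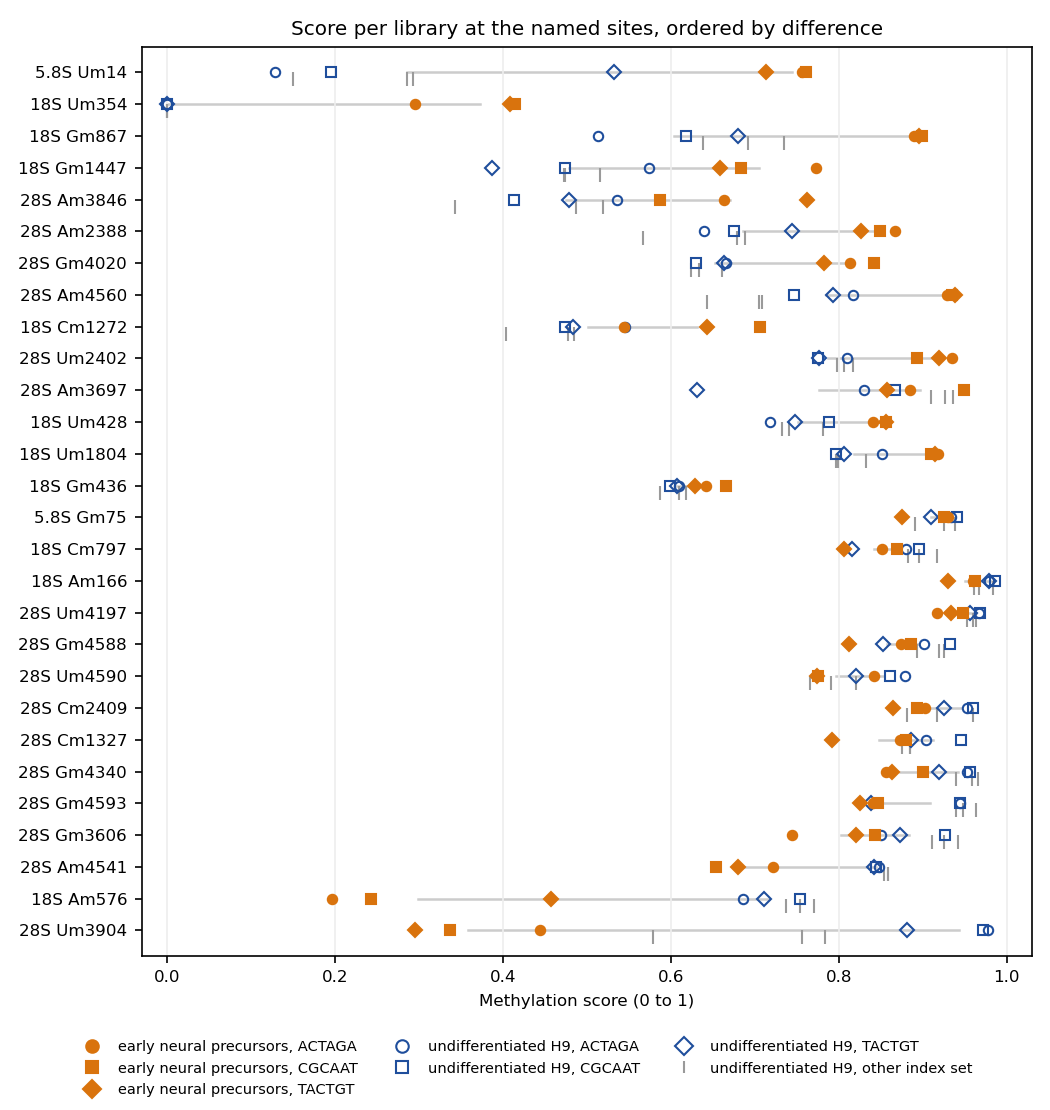
Score per library at the 28 named sites, with precursors in orange and undifferentiated H9 with the same indexes in open blue symbols, the symbol shape giving the index, and the other undifferentiated index set as grey ticks. 28S Um3904 and 18S Am576 stand far to the left of their undifferentiated libraries, and 18S Um354 starts from 0.

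Among the other named rises, 28S Am3846 and 28S Gm4020 (SNORD102) started from partial protection. Am3846 rose by 0.195 ± 0.057 (SE) from a mean of 0.476 ± 0.062 (SD, n = 3), with a limma adjusted p of 0.00342. Gm4020 rose by 0.160 ± 0.034 from 0.653 ± 0.020. 28S Am4560 (SNORD119), 28S Um2402 and 18S Um1804 (SNORD20) rose by 0.149, 0.129 and 0.0957 to means of 0.934, 0.916 and 0.914. In these 5 sites no precursor library overlapped an undifferentiated one. 28S Am3697 rose by 0.121 with overlap. The undifferentiated library of pair 3 was low there, at 0.631, and without that pair the rise was 0.0685 (limma adjusted p = 0.00239). The other undifferentiated index set read 0.910 to 0.936 and gave a difference of -0.0273.

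The falls beyond the first 3 were small and all but 1 lay in 28S rRNA. 28S Gm3606 fell by 0.0807 ± 0.0194 (SE), Gm4340 (SNORD60) fell by 0.0694 ± 0.0128, Cm1327 (SNORD104) fell by 0.0634 ± 0.0155 and Cm2409 fell by 0.0592 ± 0.0119, each with no overlap of libraries. In the same order, the calls were kept in 13, 12, 10 and 12 of 15 alternative fits on the scale of the score. These fits include those from 1 kind of read end. Gm4593 (SNORD78) fell by 0.0712 ± 0.0165, and its groups overlapped because 1 undifferentiated library read 0.839 where the other 2 read 0.944. Um4590 and Gm4588 (SNORD91), within 6 nucleotides of Gm4593, fell by 0.0564 and 0.0381 with overlapping libraries. The calls at these 3 sites were fragile and were kept in 9, 7 and 6 of the 15 fits. All were lost without the index block (limma adjusted p of 0.14, 0.261 and 0.403 for Gm4593, Um4590 and Gm4588) and without pair 1 (0.0785, 0.154 and 0.154). Um4590 and Gm4588 also lost theirs without pair 2 (0.286 for both) and with edgeR (adjusted p of 0.0533 and 0.053), and Gm4588 without pair 3 (0.0736). The 3 sites stand in each other's scoring windows and are not independent readings. 28S Um4197 (SNORD58) fell by 0.0306 and 18S Am166 (SNORD44) by 0.0305, from means above 0.96. Without pair 1 the call at Um4197 was lost (limma adjusted p = 0.167). Um4197 kept its call in 9 of the 15 fits and Am166 in 10.

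Of the sites named whether or not they were called, 4 did not pass the test. 18S Cm1272 (SNORD66) read 0.544, 0.707 and 0.643 in precursors against 0.545, 0.474 and 0.483, a difference of 0.130 ± 0.058 (SE, limma adjusted p = 0.0654). Without pair 1 it was 0.196 and passed (limma adjusted p = 0.0116). 18S Gm436 (SNORD100) read 0.642, 0.665 and 0.628 against 0.610, 0.599 and 0.607, a difference of 0.0397 ± 0.0492 with no overlap of libraries but a limma adjusted p of 0.615. The SE there was larger than the spread of the libraries, since limma draws the variance of each site towards that of sites with a similar mean score. 18S Cm797 differed by -0.0215 ± 0.0182 and 5.8S Gm75 (SNORD96) by -0.0179 ± 0.0117, both with overlapping libraries.

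Grouped by rRNA, 12 of the 40 tested 18S sites were called higher and 2 lower, with a median difference of 0.0075. Together these are 35% of the 18S sites, beside 38.9% called, 23.1% higher and 15.7% lower, and a median of 0.0014, over all 108 sites. Of the 66 tested 28S sites, 12 were called higher and 15 lower (40.9% called), with a median of -0.0039. Both shares were near that over all sites. The called falls of 18S rRNA were Am576 and Am166 alone. Along 28S rRNA the sites from Gm4020 to Gm4607 had 3 called rises and 8 called falls among 20 and a median of -0.0161, and the 14 sites from Cm2338 to Gm2863 had 5 rises and 3 falls and a median of 0.0011. In 18S the 9 sites from Um354 to Cm517 had 4 called rises, no call lower and a median of 0.0248.

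By methylated base, 12 of the 20 tested uridines were called, 9 higher and 3 lower (60%, beside 38.9% over all sites), with a median difference of 0.0177. Adenosines had 8 rises and 4 falls among 34, cytidines 4 and 3 among 23, and guanosines 4 and 7 among 31 (35.3%, 30.4% and 35.5% called), near the share over all sites, with medians between -0.0025 and 0.0025. By the level in the undifferentiated lines HUES4 and KOLF2, which are outside the comparison, the 15 tested sites under 0.8 had 8 called rises and 1 called fall (60% called) with a median difference of 0.149. The 42 sites from 0.8 to 0.95 had 12 rises and 8 falls (47.6%) with a median of 0.0014, and the 51 sites over 0.95 had 5 rises and 8 falls (25.5%) with a median of -0.0021. These counts describe the groups, and differences between groups of sites were not tested.

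Positions outside the site list show how much the score moved where no methylation is listed. The 2492 such positions tested had a mean score of at least 0.2 over the human samples outside the comparison. That minimum is stricter than the one for sites, which asks for 0.2 in 1 sample. Of these positions, 0 were called (0%) by limma with the same block, 474 had an unadjusted p under 0.05, and the lowest adjusted p was 0.155. The differences were nevertheless broad: 885 positions (35.5%) differed by at least 0.1 in either direction, against 14 of the 108 sites (13.0%). A difference of at least 0.4 was seen at 11 of the 2492 positions and at 3 of the 108 sites, a larger share of the sites. The median SE was 0.0553 at these positions and 0.0101 at the sites. With this larger SE, the absence of calls does not show that the positions stayed still. The differences ranged from -0.557 to 0.527, and 28S Um3904 lay below that range.

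**Figure D3:**
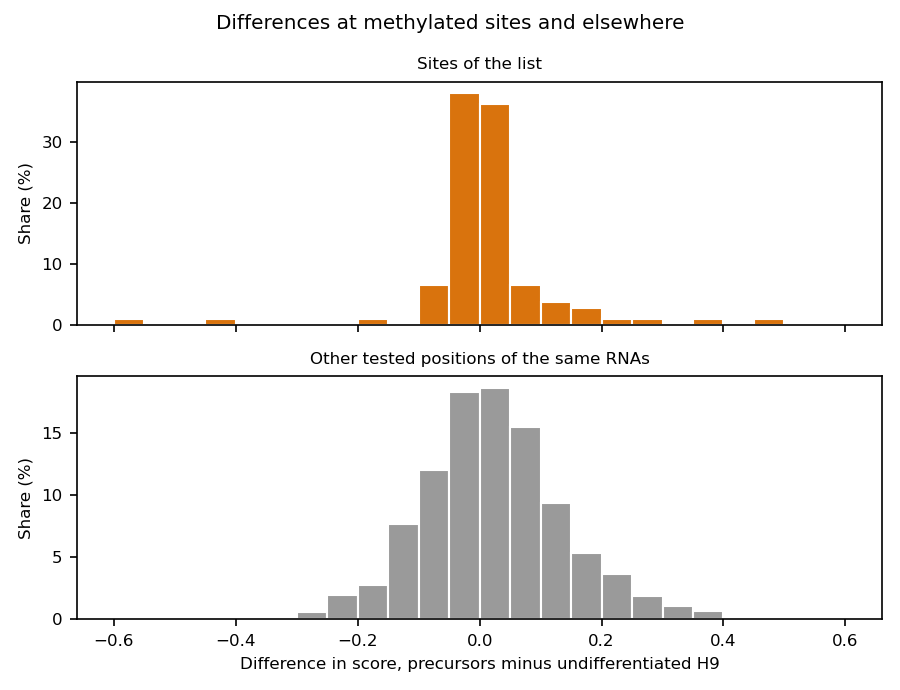
Share of the 108 tested sites (upper panel) and of the 2492 other tested positions (lower panel) by difference in score, in bins 0.05 wide. The sites crowd around 0 with a few far outliers on both sides, and the other positions are spread more widely.

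The number of calls depended on the pairing and on the libraries used. Without the index block, 20 sites were called, 15 higher and 5 lower. The other undifferentiated index set has no library with a precursor index, so it was fitted without the block too, and 28 sites were called, 20 higher and 8 lower. Leaving out the pair ACTAGA gave 27 calls, with falls reduced from 17 to 8. The small adjusted p-values rest on the variance shared between sites: with a prior that has no trend, the limma adjusted p of 28S Um3904 was 0.00169 and 24 sites were called. Of the 42 calls, 16 were made with the same direction under 16 other settings of the fit, all but the 2 that count 1 kind of read end, 13 rises and 3 falls. The 3 falls were 28S Um3904, 18S Am576 and 28S Am4541. The rises among them were 5.8S Um14, 18S Gm867, Gm1447, Um428, Um1804, Am590, Cm517 and Um799, and 28S Am2388, Um2402, Am2802, Gm4020 and Am4560. The rises at 18S Am590 (SNORD62), Cm517 (SNORD56) and Um799 (SNORD105) were 0.0753, 0.0683 and 0.0564, and that at 28S Am2802 was 0.0381.

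Later neural stages and edited cells were read beside the precursors, with no test. The late precursors and the mature neurons carry the other index set. 18S Um354 read 0.682 ± 0.058 (SD, n = 3) in H9 late neural precursors and 0.745 ± 0.026 in mature neurons, both above the early precursors at 0.373 ± 0.067. 18S Am576 read 0.277 ± 0.018 and 0.260 ± 0.016, close to the 0.299 ± 0.139 of the early precursors. 28S Um3904 went the other way, at 0.711 ± 0.132 and 0.738 ± 0.126, overlapping the undifferentiated libraries of the same index set.

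In the 2 clones of H9 in which SNORD52 was knocked out, labelled as embryonic stem cells, 28S Um3904 read 0.030 ± 0.052 and 0.016 ± 0.016 (SD, n = 3 libraries each), so that the precursors lay between these and undifferentiated H9. At sites that SNORD52 does not guide, the clones read near the precursors: 18S Um354 was at 0.378 and 0.294, 18S Am576 at 0.357 and 0.425, and 5.8S Um14 at 0.626 and 0.630. The clone libraries overlapped the precursors at 18S Um354 and Am576, and at 5.8S Um14 all 6 of them lay below every precursor library and above every undifferentiated library. The knock-out libraries also read 0.638 to 0.698 at 28S Am4541, 0.902 to 0.933 at 18S Gm867 and 0.731 to 0.801 at 18S Gm1447. The libraries of the 2 H9 clones with SNORD52 overexpressed read nearer to undifferentiated H9 at some sites. They had 0 at 18S Um354, 0.741 to 0.845 at 18S Am576 and 0.111 to 0.478 at 5.8S Um14. They were below every precursor library at 18S Gm867 (0.578 to 0.770) and above every one at 28S Am4541 (0.847 to 0.874). At 18S Gm1447 (0.546 to 0.666) and 18S Um428 (0.773 to 0.850) they overlapped both the undifferentiated and the precursor libraries. These levels are a description. The labels call the clones embryonic stem cells, their cell state could not be checked from rRNA, and the clone values hold only as far as those labels do.

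**Figure D4:**
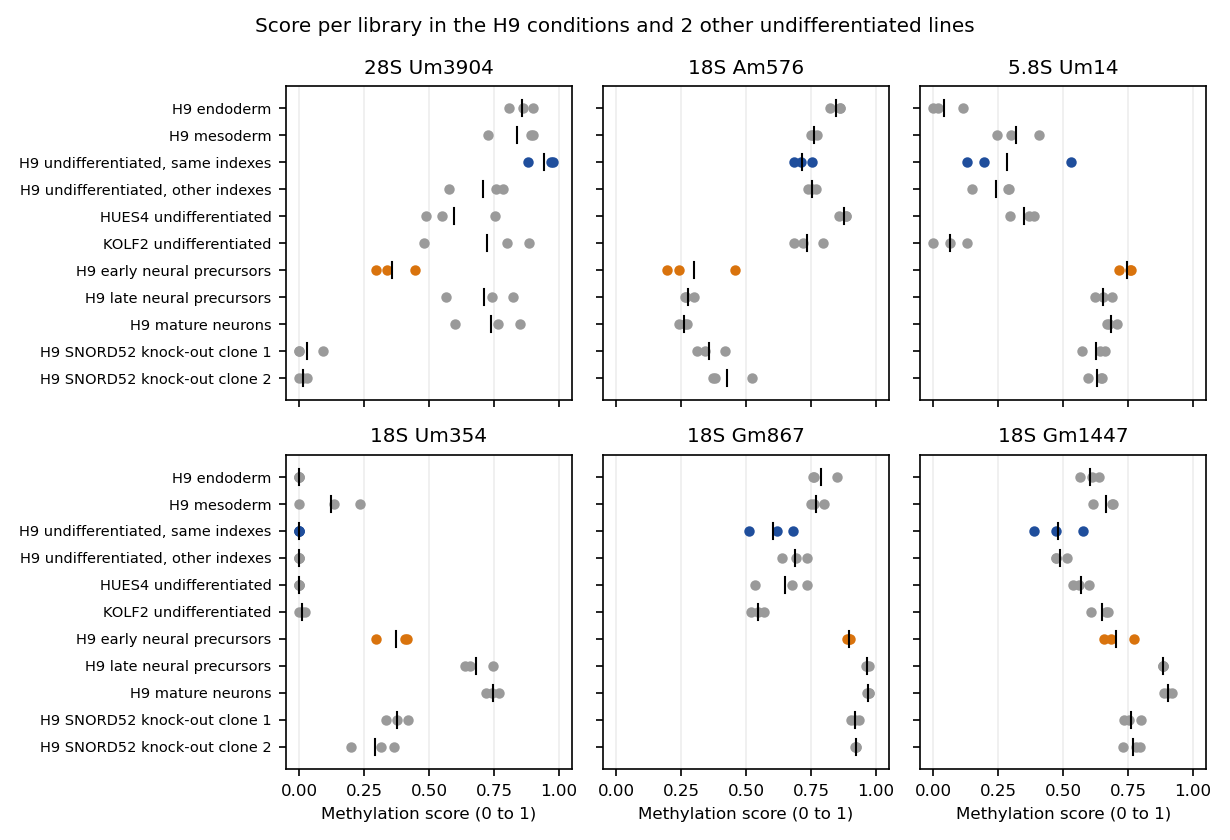
Score per library (points) and mean (black ticks) at 6 sites in H9 conditions and in undifferentiated HUES4 and KOLF2 cells, with early neural precursors in orange and undifferentiated H9 with the same indexes in blue. Early precursors are lowest of the unedited groups shown at 28S Um3904, and at 18S Um354 all undifferentiated lines lie at or near 0.

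H9 endoderm and H9 mesoderm, differentiated with a trilineage kit and carrying the same 3 indexes, were compared with the precursors directly. Against endoderm, 62 of 108 sites were called by limma with the index as a block (57.4%), with 57 higher in precursors (52.8%) and 5 lower (4.63%). Against mesoderm, 62 were called (57.4%), 58 higher (53.7%) and 4 lower (3.7%). The general level differed here: the median score was 0.877 to 0.899 in endoderm and mesoderm libraries, and the median difference was 0.0385 and 0.0389. After each library was scaled by its upper quartile, the calls were 24 higher and 11 lower against endoderm and 23 higher and 17 lower against mesoderm. Without the pair ACTAGA, no site was called against mesoderm, with 52 at an unadjusted p under 0.05, and 37 were called against endoderm. Less variance was shared between sites in these fits, with prior degrees of freedom of 4.14 and 2.28, against 88.4 for undifferentiated H9. The p-values and counts of calls of the 3 comparisons are therefore not on the same footing. Only directions that held with and without scaling are given below.

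28S Um3904 and 18S Am576 were lower in precursors than in either lineage. Um3904 read 0.857 ± 0.047 (SD, n = 3) in endoderm and 0.840 ± 0.098 in mesoderm, which puts the precursors lower by 0.499 ± 0.039 (SE, difference -0.499, limma adjusted p = 0.000651) and 0.481 ± 0.043 (difference -0.481, limma adjusted p = 0.00869). Am576 read 0.847 ± 0.022 and 0.761 ± 0.011, and the differences were -0.548 and -0.462. 5.8S Um14 was higher in precursors by 0.701 ± 0.050 than in endoderm, where it read 0.0433 ± 0.0610, and by 0.427 ± 0.052 than in mesoderm.

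Some sites differed more from endoderm or mesoderm than from undifferentiated H9. 18S Gm436 was higher in precursors than in endoderm by 0.328 and than in mesoderm by 0.363, with limma adjusted p of 0.0125 and 0.0152, and its difference from undifferentiated H9 did not pass the test. 28S Um4197 was higher than in endoderm by 0.267, where it read 0.666 ± 0.063, although it was called lower than in undifferentiated H9. 18S Cm797 was higher than in mesoderm by 0.298 and 18S Cm174 (SNORD45) higher than in endoderm by 0.261. Libraries of these references were widely spread, at 0.544 ± 0.167 (SD) for Cm797 and 0.515 ± 0.192 for Cm174. Gm436 in endoderm was spread too, at 0.318 ± 0.149. After scaling, the limma adjusted p at Cm797 was 0.0493. 18S Um354 was at 0 in all endoderm libraries and at 0 to 0.233 in mesoderm, and its difference of 0.250 from mesoderm did not pass the test (limma adjusted p = 0.0679).

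The remaining sites named by size were 18S Am668 (SNORD36) and 28S Gm4020, higher in precursors than in mesoderm by 0.245 and 0.216. 28S Am4541, Gm3606 and Um4590 were lower than in endoderm (differences -0.114, -0.0927 and -0.0707). 28S Am3846 and Gm4593 were lower than in mesoderm (differences -0.104 and -0.0753). Am3846 was thus above undifferentiated H9 and below mesoderm. The 3 comparisons share the precursor libraries, so their values are not independent of one another.

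**Figure D5:**
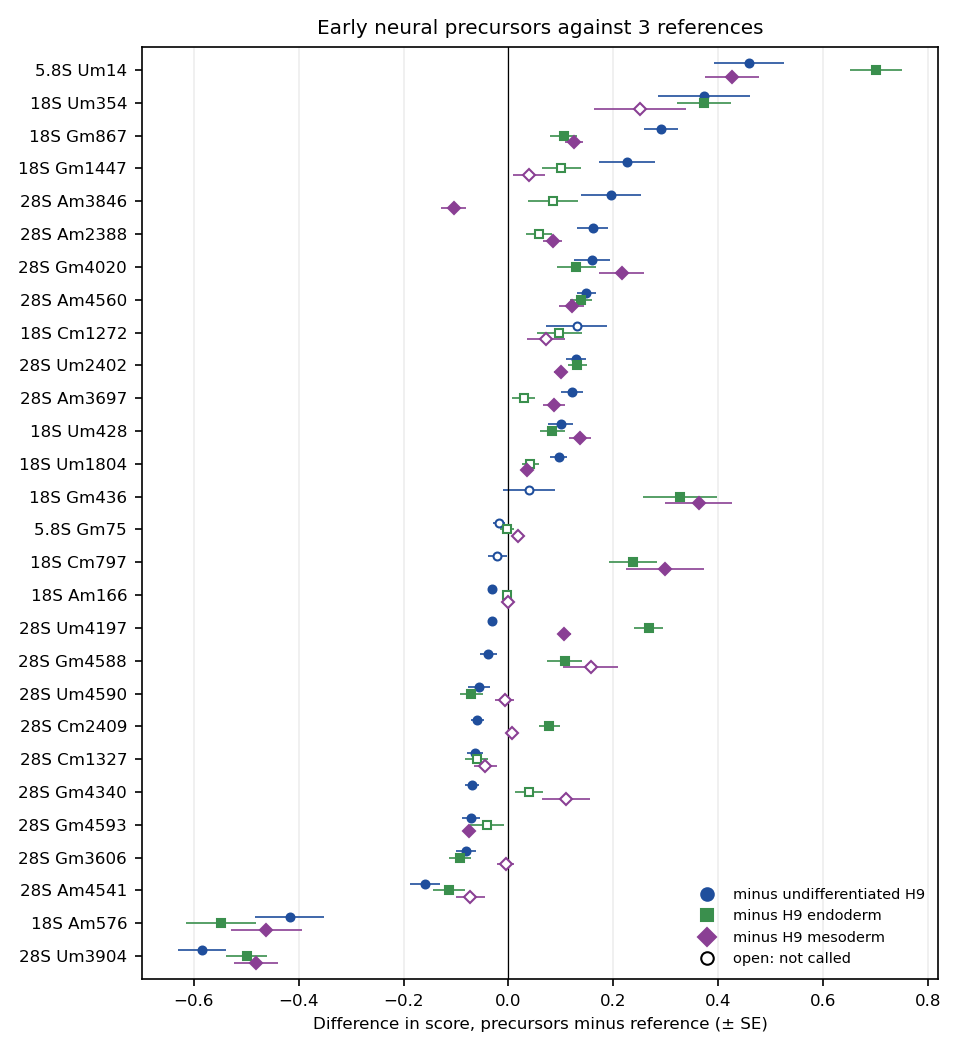
Difference in score between early neural precursors and undifferentiated H9 (blue), H9 endoderm (green) and H9 mesoderm (purple) at the 28 named sites, with bars ± SE of each paired limma fit and open symbols where the site was not called. 28S Um3904 and 18S Am576 are low against all 3 references, and 18S Gm436, 18S Cm797 and 28S Um4197 are high against endoderm and mesoderm and not against undifferentiated H9.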

How the data were processed

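Per the labels, total RNA was partly degraded in alkali, fragments of 20 to 40 nucleotides were ligated to linkers and read on an Ion Proton. No aligner is named in the sources used here. The authors deposited counts of 5′ ends, 3′ ends and their sum at each rRNA position, unscaled, and a methylation score that is a fraction from 0 to 1. The score recomputed from the counts differed from the deposited fraction by at most 5e-13 over 359838 values.

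The 109 sites and their guides came from general knowledge and were placed on the tables' sequences by base and score in other samples, so the match of bases is no check of the numbering. The 28S sites needed shifts of 9 to 30 nucleotides. A site was tested if its neighbours averaged at least 50 read ends in every library and its score reached 0.2 in a human sample outside the comparison, which left out 18S Um1668. Scores were fitted with limma 3.58.1 (R 4.3.3, trended prior, index as block, Benjamini-Hochberg over all tested sites). Tables were handled in Python 3.11.15 with pandas 2.3.3. edgeR 4.0.16 on read ends was an alternative, and both were tested on simulated data. Same-index libraries of the 2 samples deviated together (correlation 0.383 to 0.441 over sites, 3 of 3 best with their own index). Deviations were taken from the mean of 3 libraries, so these are not 3 independent results. Same-index libraries of precursors and mesoderm did so too (0.538 to 0.639), so the correlation is not particular to the 2 samples. No 2 libraries were duplicates. With 3 pairs an exact sign test cannot go below 0.25, so p-values rest on the shared variance. The p-values against undifferentiated H9 set a difference more against this shared variance than against the spread of the site's own libraries. The prior there had 88.4 degrees of freedom.

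Sites named were the 12 largest called rises and falls with 1 sign in all pairs, 14 fixed sites, and for endoderm and mesoderm the 5 largest each way. Members, lists and tests were chosen with earlier results of these data known. Read ends carry no molecular identifiers.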

Additional observations from a re-analysis of the deposited data

Results flagged for a closer look

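Over the 6 undifferentiated H9 libraries, the lowest or highest value was checked for its gap to the rest at the 28 named sites. Chance alone picks out about 1 in 20 groups that were not chosen by their values. Most of the 28 sites were named by their difference from 3 of these libraries, so the rate does not apply to them. The undifferentiated library with index TACTGT stood apart at 3 sites, each time as the lowest. At 28S Am3697 it read 0.631, with the other 5 at 0.83 to 0.936. At 28S Gm4593 it read 0.839, with the others at 0.94 to 0.964. At 18S Cm797 it read 0.815, with the others at 0.88 to 0.917. Its depth, 13718466 read ends, was the lowest of the 6, and the part of depth in these values was not tested.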

How the results depend on the processing

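The direction and the call held at 28S Um3904, 28S Um2402, 18S Am576 and 18S Gm867 in every alternative run, the scores from 5′ or 3′ ends alone, added after seeing the data, among them. Without the replicate block that pairs libraries by index, 20 sites were called in place of 42. A prior without a trend gave 24 and 3′ ends alone gave 4, with 26 at an unadjusted p under 0.05. Leaving out 1 index pair gave 27 to 40 calls. Against endoderm the calls went from 62 to 35 after scaling by the upper quartile and to 37 to 74 without 1 pair, and against mesoderm to 40 and to 0 to 69. The median difference stayed within the spread over pairs, between -0.00208 and 0.0058. Outside the list, 0 positions were called in every alternative run. The sign turned at 28S Am3697 (-0.0273) and Um4590 (0.00485) against the other undifferentiated index set, and at 28S Um4197 (0.00322), 18S Gm436 (-0.0135) and 5.8S Gm75 (0.0229) from 3′ ends alone. The cause was not tested. At 5.8S Um14 the 3′ ends could give no value, and 18S Um354 fell below a minimum set on the mean over all human samples and was not tested there.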

Other observations

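Several smaller changes lay at sites outside the named set. 18S Um1442 (SNORD61) rose by 0.0308 to a mean of 0.982, and 28S Um4276 (SNORD41) rose by 0.0792 to 0.921, although the latter was called in 10 of the 16 alternative settings. These sites were picked after their values were seen.

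Most calls had the same sign in both kinds of read end: 37 of the 42 called sites moved the same way in 5′ ends and in 3′ ends. The exceptions were 28S Am2350, Gm2411, Cm3787 and Um4197, with called differences under 0.05 in size, and 5.8S Um14, where 3′ ends give no value.

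The largest difference outside the site list was at nucleotide 4220 of 28S rRNA as the tables number it. Its score went from 0.586 in undifferentiated H9 to 0.0288 in precursors, a difference of -0.557 ± 0.054 (SE of the paired limma fit, n = 3 pairs, adjusted p = 0.155), which was not called. The position was chosen after its value was seen.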
